A study of Arabidopsis thaliana with 24 samples.

Results

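The response of wild-type Arabidopsis thaliana leaves to a sudden rise in light was read from 8 libraries, chosen by their labels as genotype Col-0: 4 kept in low light (LL) and 4 moved to high light (HL). They belong to a series of 24 libraries that also holds 8 of BBX32-10, a line over-expressing the B-box gene BBX32, and 8 of hy5-2, which lacks a working copy of HY5, the gene of a bZIP transcription factor. The Col-0 plants are the wild type and carry no transgene or mutant allele. Per the labels, all plants were 35 days old and had grown in 8 h days at 23 °C under 150 µmol photons per square metre per second. LL plants stayed in that light, and HL plants received 1100 ± 100 µmol per square metre per second from white LEDs in the same chamber for 3.5 h, starting 1 h after dawn. Each library came from 4 leaves of a separate plant, so n is 4 per group, and the contrast is 1 exposure at 1 time of day.

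Leaves absorb light through pigment-protein antennae that feed 2 photosystems in the thylakoid membrane, and light beyond what carbon fixation can use is dissipated as heat or leads to reactive oxygen. Plants moved to strong light are known to shrink the antenna, repair photosystem II, build protective carotenoids and anthocyanins, and make chaperones. Blue and ultraviolet photoreceptors act partly through HY5, while phytochrome-interacting factors (PIFs) promote shade growth and are removed in light.

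The values were the authors' FPKM (fragment numbers normalised for gene length and sequencing depth), which allow levels to be compared between genes. Behind them stood 35408723 to 40866178 fragments per LL library and 36054202 to 40710139 per HL library, so for a gene of 1 kb a single fragment was worth 0.0245 to 0.0282 FPKM. Changes are given as log2 differences of FPKM + 1, HL minus LL, with their standard error (SE), and they understate the change of genes at low FPKM. The SE and limma's p rest on a residual variance per gene pooled over all 24 libraries. They therefore include the spread of the other lines and are not those of the Col-0 plants alone. A gene was called when limma's adjusted p was under 0.05. Along the first principal component of the 8 libraries, which held 71.7% of the variance, the LL libraries lay from -42.9 to -35.9 and the HL libraries from 35.8 to 42.5. The second held 10.5% and spread plants within both groups.

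Of 17788 genes tested, 9182 (51.6%) were called, 5340 (30.0%) higher and 3842 (21.6%) lower in HL. Most changes were small, with a median log2 change of 0.58 among the genes called higher and -0.57 among those called lower. Changes of at least 2-fold were called for 867 genes higher (4.87%) and 673 lower (3.78%), and changes of at least 4-fold for 71 higher and 66 lower. The median of all tested genes was 0.05, and the share of calls that were higher was 58.2%. When the libraries were rescaled to their median ratio, these became -0.02 and 48.5%, with 4623 genes higher and 4912 lower. In 9346 genes (52.5%) the 4 HL libraries did not overlap the 4 LL libraries. These shares are the background against which the members of each gene list below are read. Testing required 1 FPKM in 4 or more of the 24 libraries. On the 12 HL libraries alone 678 tested genes missed this level, which favours a fall. On the 12 LL libraries alone 740 missed it, which favours a rise.

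**Figure D1:**
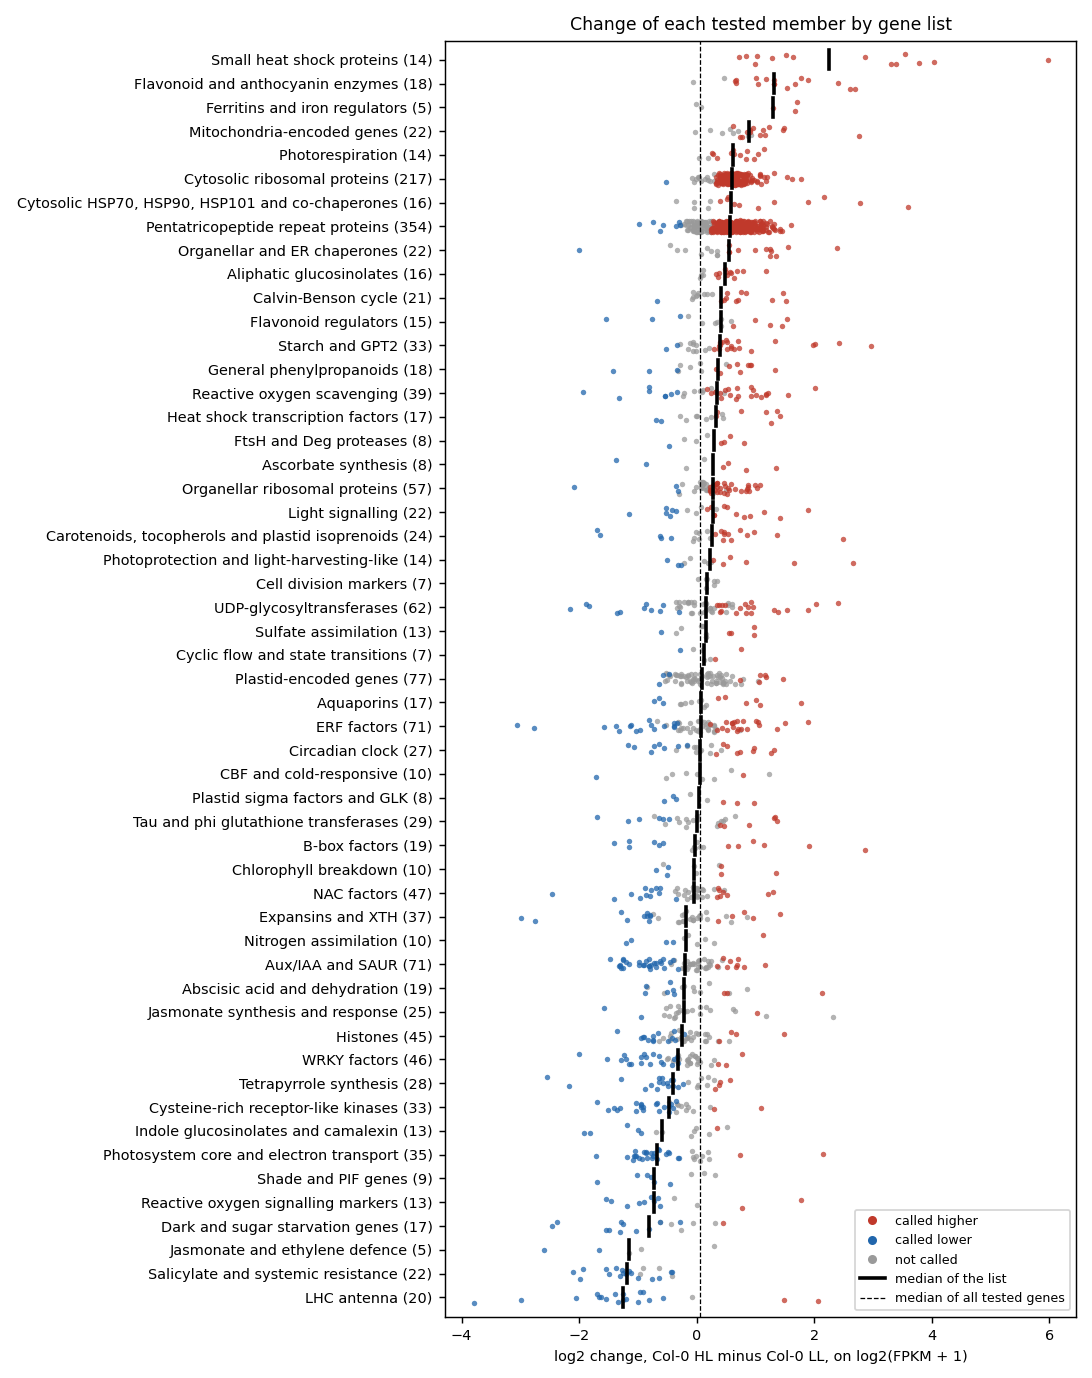
Each dot is the log2 change (Col-0 HL minus LL, on the log2(FPKM + 1) scale, x axis) of 1 tested member of the gene list named on the y axis, with the number tested in brackets. Red dots were called higher, blue lower and grey not called, black bars are list medians, and the dashed line is the median of all tested genes. The antenna, salicylate and starvation medians lie to the left of it (0.05), and the small heat shock protein, flavonoid enzyme and ferritin medians to the right.

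The genes of the light-harvesting antenna, which code for the chlorophyll-binding proteins around both photosystems, were lower in HL almost throughout. Of 20 tested members of 21, 17 fell and 2 rose, with a median log2 change of -1.26. Their summed level fell from 91696 ± 3912 FPKM (SD, n = 4) in LL to 35134 ± 1217 in HL, or from 13.4% to 5.20% of all FPKM in the library. LHCB1.4 (AT2G34430), which codes for a subunit of the trimeric antenna of photosystem II, stood at 3624, 3736, 3468 and 3158 FPKM in the LL libraries and 244, 312, 262 and 202 in the HL libraries, 13.7-fold lower by the means (log2 change -3.79, SE 0.21, limma adjusted p 1.27e-11). The 2 groups were far apart, and among all tested genes only AT5G48490, described further on, had as negative a log2 change. LHCB1.5, the neighbour of LHCB1.4, is 91.4% identical to it over 806 bases, so reads of this family could be shared between copies. LHCB1.5 was listed at 0, and AT2G08665 on the opposite strand overlaps 100.0% of its exon bases.

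LHCB2.3, another trimer subunit, stood at 1423, 1618, 1865 and 1638 FPKM in the LL libraries and 215, 205, 205 and 193 in the HL libraries (log2 change -2.99). The annotated gene AT3G27700 on the opposite strand overlaps 40.6% of its exon bases. LHCB1.3, the most abundant antenna transcript, stood at 16899, 16718, 17934 and 15763 FPKM in the LL libraries and 5926, 6229.8, 4725 and 4461 in the HL libraries (log2 change -1.67). The groups were separate in both genes, and within HL the first 2 plants kept more LHCB1.3 than the others. All 8 tested LHCB1, LHCB2 and LHCB3 genes fell, with a median of -1.64, while 5 of the 6 LHCA genes, which serve photosystem I, fell with a median of -0.93. LHCA6 had a log2 change of -0.08 (limma adjusted p 0.533).

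The 2 antenna genes that rose had low levels in LL beside the trimer genes. LHCB4.3, a form of the minor antenna protein CP29, stood at 57.2, 69.2, 78.0 and 56.3 FPKM in the LL libraries and 272, 284, 257 and 274 in the HL libraries (log2 change 2.06, SE 0.35, limma adjusted p 4.13e-05). Its paralog LHCB4.2 stood at 2719.9, 2585, 2518 and 2333 FPKM in LL and 669, 605, 599 and 577 in HL (log2 change -2.05). LHCB7 had means of 19.2 and 55.6 FPKM in LL and HL (log2 change 1.48).

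**Figure D2:**
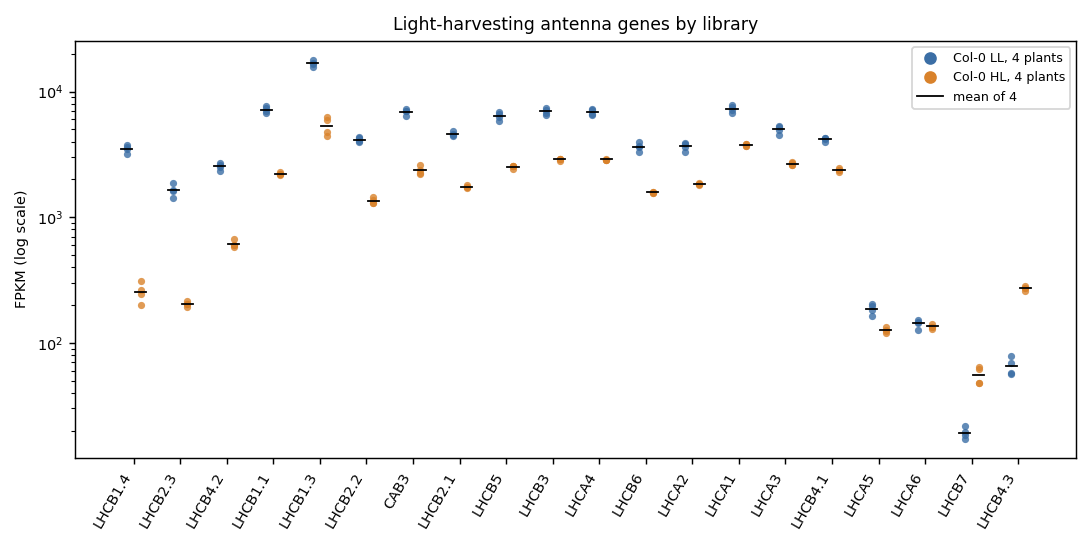
FPKM on a log scale of each tested antenna gene in every Col-0 library, with a line at the mean of 4 plants, ordered by log2 change. LHCB1.4 lies at the left with 3158 to 3736 FPKM in LL and 202 to 312 in HL, and LHCB7 and LHCB4.3 at the right are the members that rose.

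Photosystem core and electron transport genes were also mostly lower. Of 35 tested, 25 fell and 2 rose, with a median of -0.68, and their sum went from 69918 to 47124 FPKM. All 12 nuclear genes for photosystem I subunits fell (median -0.95), a count that includes paralogs such as PSAE1 and PSAE2 and leaves out plastid-encoded subunits. The falls were led by PSAD2 (1037 ± 19.9 to 315 ± 27.9 FPKM, SD, n = 4) and PSAO, which takes part in state transitions (log2 change -1.18). Of the 12 nuclear genes listed for photosystem II subunits, 10 fell (median -0.67) and PSB28, an assembly factor, rose (log2 change 0.73). The other riser was FD1, a leaf ferredoxin that carries electrons from photosystem I, at 262, 300.4, 276 and 261 FPKM in the LL libraries and 1242, 1262, 1102 and 1291 in the HL libraries (log2 change 2.15, SE 0.11, limma adjusted p 4.34e-12). No plant overlapped between the groups in FD1, and its HL plants spanned a narrow range.

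Photoprotective genes were mixed, with 6 of 14 called higher and 3 lower (median 0.22). PSBS, the photosystem II subunit needed for rapid heat dissipation, stood at 1369, 1576, 1790.1 and 1561 FPKM in the LL libraries and 2909, 2897, 2715 and 2734 in the HL libraries (log2 change 0.84, SE 0.12, limma adjusted p 5.47e-06). The early light-induced protein gene ELIP1, whose product binds free chlorophyll under light stress, stood at 26.0, 32.7, 43.1 and 26.7 FPKM in the LL libraries and 245, 254, 141 and 193 in the HL libraries (log2 change 2.65, SE 0.46, limma adjusted p 5.45e-05), and every HL plant was above every LL plant. ELIP2 stood at 3.04, 6.44, 12.4 and 3.29 FPKM in the LL libraries and 27.2, 31.8, 13.7 and 11.4 in the HL libraries (log2 change 1.65, SE 0.69, limma adjusted p 0.0484). In ELIP2 the third LL plant, at 12.4 FPKM, was above the fourth HL plant, and of the 8 fits that left out a Col-0 plant, only those without the third LL or the fourth HL plant kept the call. The SEs of ELIP1 and ELIP2 include HL plants of the BBX32 over-expressing line, with SDs of 226 and 46.4 FPKM. VDE1, the de-epoxidase of the xanthophyll cycle, fell by 0.50 on the log2 scale.

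Among the FtsH and Deg proteases, which degrade damaged photosystem II protein, 4 of 8 tested were called higher and 1 lower. FTSH8, a subunit of the thylakoid FtsH complex, rose (log2 change 0.80) and DEG1, a lumenal protease, fell (log2 change -0.47). Of the 7 genes for cyclic electron flow and state transitions, 2 were called higher (28.6%) and 1 lower (14.3%), against 30.0% and 21.6% over all tested genes.

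Chlorophyll synthesis genes fell with the antenna: 17 of 28 tested tetrapyrrole genes were lower and 4 higher, with a median of -0.41. PORB, a light-dependent protochlorophyllide reductase, stood at 642, 677, 632 and 718 FPKM in the LL libraries and 179, 146, 135 and 132 in the HL libraries (log2 change -2.17, SE 0.18, limma adjusted p 3.07e-09). Its paralog PORA, best known from seedlings, stood at 4.09, 7.04, 6.02 and 5.14 FPKM in LL and 0.253, 0.170, 0 and 0.0174 in HL (log2 change -2.55). CAO, which makes the chlorophyll b of the antenna, fell (log2 change -1.28), and FC2, a ferrochelatase on the haem branch, rose (log2 change 0.56). PORA was near 0 in every HL plant, and both POR genes were separate between the groups. Of 10 genes of chlorophyll breakdown, 3 were called each way, and NYC1, a chlorophyll b reductase, rose (log2 change 1.34). These 30.0% each way compare with 30.0% higher and 21.6% lower over all tested genes.

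In the carotenoid, tocopherol and plastid isoprenoid list, 12 of 24 tested genes were called higher and 5 lower (median 0.26). Both beta-carotene hydroxylases, which make the xanthophylls zeaxanthin and its derivatives, rose. BCH1 stood at 15.3, 16.9, 20.4 and 17.3 FPKM in the LL libraries and 113, 112, 89.5 and 96.8 in the HL libraries (log2 change 2.49, SE 0.18, limma adjusted p 4.98e-10), and BCH2 had a log2 change of 1.37. The falls were led by VTE5, a phytol kinase that feeds tocopherol synthesis (log2 change -1.70), and by CCD4, a carotenoid cleavage dioxygenase (log2 change -1.64). Of 8 plastid sigma factors and GLK activators of photosynthesis genes, 3 were called each way, with SIG4 at 0.98 and GLK2 at -0.56 on the log2 scale.

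Carbon fixation genes rose more often than they fell. Of 21 Calvin-Benson cycle genes, 11 rose and 1 fell (median 0.42), and their sum went from 40284 to 54421 FPKM. FBA1, a plastid aldolase, stood at 984, 1012, 1134 and 1048 FPKM in the LL libraries and 2710.1, 2930.5, 3201 and 3126 in the HL libraries (log2 change 1.52). Of the 4 tested genes for the small Rubisco subunit, RBCS1B, RBCS2B and RBCS3B rose by 1.47, 1.28 and 0.75 on the log2 scale. The remaining gene, RBCS1A, had a log2 change of 0.12 (limma adjusted p 0.412). GAPA-2, a plastid glyceraldehyde-3-phosphate dehydrogenase, was the gene that fell (log2 change -0.68).

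Photorespiration, which salvages the product of Rubisco's reaction with oxygen, had 12 of 14 genes higher and none lower (median 0.62), and its sum went from 7519 to 11735 FPKM. GOX1, the peroxisomal glycolate oxidase, stood at 685, 759, 785 and 766 FPKM in the LL libraries and 1582, 1636, 1731 and 1698 in the HL libraries (log2 change 1.15). Subunits of mitochondrial glycine decarboxylase rose with it, among them GLDP1 (log2 change 1.05) and GDCH (log2 change 0.97).

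Starch genes rose widely, with 21 of 33 higher and 2 lower (median 0.39), and their sum went from 1864 to 3022 FPKM. GPT2, a glucose-6-phosphate/phosphate translocator of the plastid envelope, stood at 11.2, 8.85, 8.19 and 8.11 FPKM in the LL libraries and 70.9, 76.7, 81.8 and 79.4 in the HL libraries (log2 change 2.96, SE 0.30, limma adjusted p 3.84e-08). Its plants were close together within each group, and the groups were far apart. Both synthesis and breakdown were represented, with GBSS1, the amylose-making starch synthase, at 2.02, the beta-amylase BAM3 at 1.97 and PWD, a glucan phosphorylating enzyme, at 1.33 on the log2 scale. APL1, a subunit of ADP-glucose pyrophosphorylase, fell (log2 change -0.52).

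Genes that mark darkness and sugar starvation fell: 11 of 17 tested were lower and 1 higher (median -0.81), and their sum went from 140 to 77.5 FPKM. On the 12 HL libraries alone 2 of the 17 missed the level required for testing, which favours a fall. The class II trehalose-phosphate synthase gene TPS11 stood at 13.4, 12.8, 12.0 and 12.0 FPKM in the LL libraries and 1.62, 1.42, 1.50 and 1.22 in the HL libraries (log2 change -2.47), and its relative TPS8 had a log2 change of -2.37. SEN1, a senescence-associated gene, and ASN1, an asparagine synthetase induced in the dark, fell by 1.55 and by 1.49 on the log2 scale. TPS5 was the member that rose (log2 change 0.45). Of 10 nitrogen assimilation genes, 4 were lower and 1 higher, with the cytosolic glutamine synthetase GLN1;1 at -1.21 and the plastid nitrite reductase NIR1 at 1.13. Of 13 sulfate assimilation genes, 4 were higher and 1 lower, with the reductase APR2 at 0.97.

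Small heat shock proteins, which bind unfolding proteins and hold them for refolding, were higher in HL. Of 18 members, 14 reached the level required for testing and were called higher. For 5 of them (HSP17.4, HSP17.6C, HSP17.6II, HSP17.7 and HSP23.6) the 12 LL libraries of the series alone did not reach that level, so passing the filter favoured a rise and inflates the count and the median of 2.25. The 9 members that passed on the LL libraries alone rose as well. HSP17.6B (AT2G29500), a cytosolic class I member, stood at 3.21, 2.26, 1.81 and 2.20 FPKM in the LL libraries and 143, 125, 239.5 and 433 in the HL libraries, a 99.2-fold difference of means (log2 change 5.97, SE 0.41, limma adjusted p 2.58e-10). HSP17.6B had the largest positive log2 change of all genes tested. HSP23.6, a mitochondrial member, was listed at 0, 0, 0 and 0 FPKM in the LL libraries and 11.1, 5.30, 4.97 and 20.0 in the HL libraries. Against a floor of 3 fragments in each library, 0.0700 to 0.0808 FPKM, its HL mean was at least 135-fold higher, a bound that covers counting error only.

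The promoters of HSP17.6B and of HSP17.4, a low-expressed member of the same class, are shown because they differ in the letters of the heat shock element, which heat shock factors bind. The element was searched as GAANNTTC and TTCNNGAA on both strands, forms that can overlap. Each sequence is the 250 bases before the annotated start in the TAIR10.1 build of RefSeq, 5′ to 3′ on the gene's strand, with matches in capitals. That of HSP17.6B is chr2:12634121-12634370, minus strand, with no match, and that of HSP17.4 is chr3:16984868-16985117, minus strand, with 4 matches in overlapping pairs.
HSP17.6B: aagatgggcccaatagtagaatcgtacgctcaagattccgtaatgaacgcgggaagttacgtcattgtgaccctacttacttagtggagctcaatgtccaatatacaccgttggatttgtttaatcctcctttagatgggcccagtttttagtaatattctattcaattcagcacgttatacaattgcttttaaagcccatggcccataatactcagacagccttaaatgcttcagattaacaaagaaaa
HSP17.4: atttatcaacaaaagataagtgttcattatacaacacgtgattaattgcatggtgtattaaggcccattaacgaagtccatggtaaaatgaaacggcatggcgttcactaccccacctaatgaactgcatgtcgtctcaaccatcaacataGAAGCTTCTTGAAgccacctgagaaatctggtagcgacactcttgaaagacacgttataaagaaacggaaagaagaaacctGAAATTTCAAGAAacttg
HSP17.4 stood at 0, 0, 0 and 0 FPKM in LL and 1.07, 0.884, 1.48 and 2.55 in HL, at least 14-fold higher against the same kind of floor. The annotated gene AT3G07365 on the opposite strand overlaps 62.6% of its exon bases. A match was found in 5 of the 14 small heat shock protein promoters (35.7%), in 3 of 16 for cytosolic chaperones (18.8%), and in 2803 of the 17672 promoters of tested genes (15.9%). These are letter matches in a window and no measure of binding.

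Within the HL group the fourth plant stood out. Summed over the small heat shock proteins, the HL plants gave 361, 299, 443 and 717 FPKM, and the LL plants 46.4, 46.3, 46.9 and 51.8. HSP17.6C, another class I member, stood at 0, 0.153, 0.0815 and 0.0593 FPKM in the LL libraries and 10.9, 9.16, 11.6 and 30.1 in the HL libraries, highest by far in the fourth HL plant. Without the fourth HL plant 13 of the 14 tested members were still called, with the same limit from the filter.

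**Figure D3:**
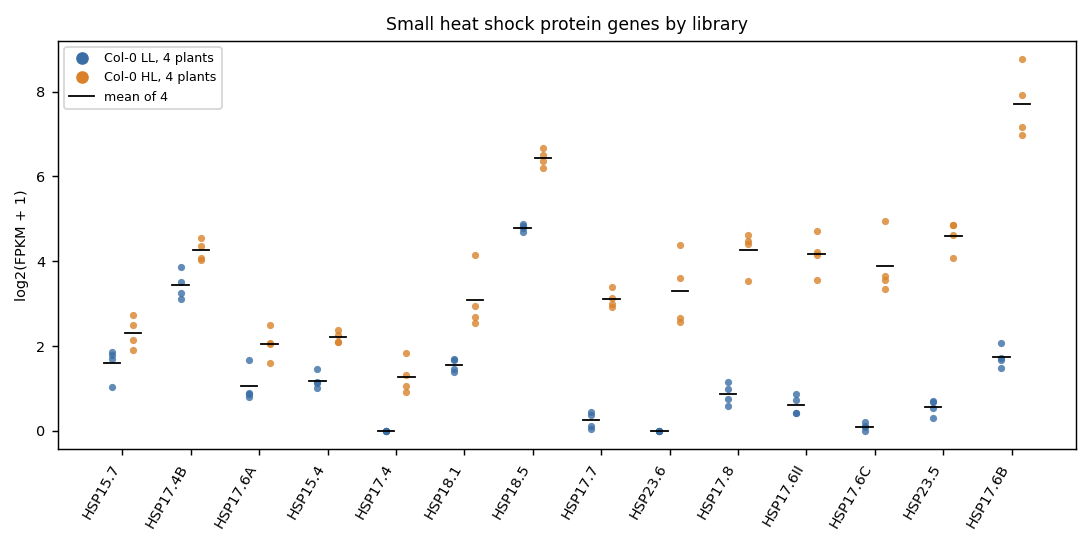
Level as log2(FPKM + 1) of each tested small heat shock protein gene in every Col-0 library, 4 LL and 4 HL plants as points with a line at their mean, ordered by log2 change. HSP17.6B, at 1.81 to 3.21 FPKM in LL and 125 to 433 in HL, is the member with the largest change.

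Most of the larger cytosolic chaperones rose too: 11 of 16 were higher and none lower (median 0.59), and after rescaling 10 were higher and 1 lower. Their sum moved little, from 1135 to 1275 FPKM, and overlapped between the groups (1031 to 1229 in LL, 1149 to 1393 in HL). MED37C (AT3G12580), a cytosolic HSP70, stood at 3.60, 4.45, 3.96 and 3.89 FPKM in the LL libraries and 63.7, 45.6, 55.1 and 75.4 in the HL libraries (log2 change 3.59, SE 0.31, limma adjusted p 6.24e-09). HOP3, a co-chaperone that links HSP70 and HSP90, had a log2 change of 2.78, the stress-induced HSP90.1 one of 2.17 and the disaggregase HSP101 one of 1.31. For HOP3 the 12 LL libraries alone did not reach the level required for testing, which favours a rise.

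Organellar and endoplasmic reticulum chaperones were counted by compartment. All 11 plastid and mitochondrial members rose (median 1.25, from 0.55 to 2.38), led by the plastid HSP90.5 at 100.5, 100.1, 96.0 and 112 FPKM in the LL libraries and 523, 528, 499.9 and 599.6 in the HL libraries (log2 change 2.38, SE 0.13, limma adjusted p 1.11e-11) and the mitochondrial HSP90-6 (log2 change 1.55). Of the 11 members of the endoplasmic reticulum, 1 rose and 1 fell, with a median of 0.17. The gene that fell was BIP3, a lumenal HSP70 known as a marker of the unfolded protein response, at 29.0, 22.1, 10.9 and 6.54 FPKM in the LL libraries and 1.86, 3.24, 2.83 and 4.11 in the HL libraries (log2 change -2.01). Its LL plants ranged widely and still lay above all HL plants. Without the third or the fourth LL plant, 2 organellar and endoplasmic reticulum chaperones were called lower. The difference between the compartments was not tested.

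Of 17 tested heat shock transcription factors and partners, 7 rose and 2 fell (median 0.32). HSFA2, an amplifier of the heat response, rose by 1.26 on the log2 scale, and DREB2A, which activates heat and drought genes, by 1.36. The coactivator MBF1C stood at 11.0, 9.89, 10.0 and 9.99 FPKM in the LL libraries and 24.0, 15.4, 46.7 and 39.7 in the HL libraries (log2 change 1.41), highest in the third and the fourth HL plants. HSFA4A and HSFA5 fell, with log2 changes of -0.70 and -0.60.

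Nearly all genes for the cytosolic ribosome rose. Of 217 tested cytosolic ribosomal protein genes, 203 rose and 1 fell (median 0.60), and 13 rose by 2-fold or more. Their sum went from 32480 ± 1163 FPKM (SD, n = 4) to 48867 ± 4431, or from 4.74% to 7.23% of the library. Near-identical copies are common in this family, so the counts of single members are uncertain. RPS9C stood at 8.60, 6.31, 8.58 and 8.13 FPKM in the LL libraries and 29.0, 27.2, 29.1 and 32.7 in the HL libraries (log2 change 1.78), ARP2 had a log2 change of 1.62, and RPL36A stood at 60.2, 63.4, 55.8 and 67.9 FPKM in the LL libraries and 138, 134, 125 and 126 in the HL libraries (log2 change 1.07). The member that fell, RPL18AA (log2 change -0.53), overlaps another annotated gene of that name over 35.3% of its exon bases.

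Promoters of cytosolic ribosomal protein genes are known to carry the telo-box AAACCCTA and the site II element TGGGCC, and RPL36A is shown as a member with both. These motifs were added to the search after the values were seen. The window is chr2:15775375-15775624, minus strand, in the same build and orientation as above, with 1 telo-box and 3 site II matches in capitals, counting both strands.
RPL36A: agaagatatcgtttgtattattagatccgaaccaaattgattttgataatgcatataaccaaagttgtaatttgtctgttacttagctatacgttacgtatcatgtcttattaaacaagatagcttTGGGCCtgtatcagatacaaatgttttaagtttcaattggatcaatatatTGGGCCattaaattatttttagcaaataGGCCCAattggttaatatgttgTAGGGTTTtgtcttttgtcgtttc
The telo-box was found in 41 of 217 cytosolic ribosomal protein promoters (18.9%) and in 666 of 17672 (3.8%). The site II letters were found in 115 of 217 (53.0%) and in 3081 of 17672 (17.4%), and also in 9 of the 14 small heat shock protein promoters (64.3%).

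Of 57 tested ribosomal proteins of the organelles, 32 rose and 3 fell (median 0.27), and after the rescaling to the median ratio 21 rose. Pentatricopeptide repeat proteins, which edit and process organellar RNA, had 274 of 354 tested members higher and 7 lower (median 0.57). For 89 of these 354 the 12 LL libraries alone did not reach the level required for testing, which favours a rise, and of the 265 others 190 rose. PCMP-H68 was among their largest rises (log2 change 1.60). Libraries were made from polyadenylated RNA, in which organellar transcripts are caught only in part. Of 152 mitochondria-encoded genes, only 22 were tested, and 13 of these missed the required level on the 12 LL libraries alone, which favours a rise. Of the 9 that passed on the LL libraries alone, 4 rose. All members summed to 53.0 FPKM in LL and 127 in HL, and the first HL plant was the lowest of the HL plants at 102. Of 77 plastid-encoded genes 6 were called higher and 3 lower, but 1 to 3 higher in the fits without the first or second LL plant or the first, the second or the third HL plant, and 1 lower without the fourth HL plant.

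Enzymes that remove reactive oxygen rose more often than they fell, with 21 of 39 tested higher and 8 lower (median 0.35). CAT2, the leaf peroxisomal catalase that clears hydrogen peroxide from photorespiration, stood at 405, 369.7, 413 and 359.5 FPKM in the LL libraries and 1037, 1146, 1153 and 1226 in the HL libraries (log2 change 1.56). The catalase gene CAT3 moved the other way (log2 change -1.33). GPX7, a plastid glutathione peroxidase, stood at 10.1, 8.85, 11.0 and 9.80 FPKM in the LL libraries and 38.2, 41.0, 48.8 and 45.6 in the HL libraries (log2 change 2.02), with 43.9% of its exon bases overlapped by AT4G31875. APX1, the main cytosolic ascorbate peroxidase, rose (log2 change 1.17) and MDAR3, a monodehydroascorbate reductase, fell (log2 change -1.93).

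APX2, the ascorbate peroxidase best known as a high-light reporter, was below the level required for testing. It was listed at 0 in all 4 LL plants and at 0.209, 0.0239, 0.158 and 0.594 FPKM in the HL plants. In ascorbate synthesis, 4 of 8 genes were called higher and 2 lower. The epimerase gene GME rose (log2 change 1.34), VTC2, which catalyses the committed step, had a log2 change of 0.84, and VTC4, a phosphatase, fell (log2 change -1.38).

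Of 13 tested marker genes of reactive oxygen signalling, 9 were called lower and 2 higher (median -0.73). Of the 13, 4 missed the level required for testing on the 12 HL libraries alone, which favours a fall. Among members with a mean FPKM of at least 5 the calls were 2 each way and the median changed sign. The list's sum was 140 ± 19.5 FPKM (SD, n = 4) in LL and 126 ± 9.99 in HL. The zinc-finger gene ZAT7 fell (log2 change -1.55), ZAT10 had a log2 change of -0.63 (limma adjusted p 0.0408) and ZAT12 one of -0.38 (limma adjusted p 0.237). The ZAT10 call was kept only in the fits without the third LL, the third HL or the fourth HL plant. The 2 that rose were AOX1A, the alternative oxidase of mitochondria (log2 change 0.77), and AT2G21640, known from mitochondrial stress (log2 change 1.78). Of 5 tested genes for iron storage and its regulators, 3 rose, all of them ferritins of the plastid. FER1 stood at 136, 95.4, 128 and 96.2 FPKM in the LL libraries and 339, 326, 418 and 406 in the HL libraries (log2 change 1.71), and FER3 and FER4 had log2 changes of 1.68 and 1.29.

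Flavonoid and anthocyanin enzymes rose in 16 of 18 tested genes and fell in none (median 1.31), 13 of them by 2-fold or more. Their sum was 1157, 711, 731 and 952 FPKM in LL and 1409, 1651, 2012 and 2069 in HL. F3'H, which hydroxylates flavonoids on the way to cyanidin, stood at 14.2, 4.60, 3.41 and 9.94 FPKM in the LL libraries and 30.6, 44.2, 72.0 and 70.0 in the HL libraries (log2 change 2.70, SE 0.42, limma adjusted p 1.53e-05). Chalcone synthase, CHS, the entry enzyme, stood at 375, 259.8, 285 and 275 FPKM in the LL libraries and 401, 478, 493 and 525 in the HL libraries (log2 change 0.67, SE 0.23, limma adjusted p 0.0201). The CHS call was lost after rescaling, where the log2 change was 0.59, without the second LL plant (0.61) and without the fourth HL plant (0.62). DFR, the first enzyme committed to anthocyanins, stood at 109, 27.5, 21.0 and 75.8 FPKM in the LL libraries and 92.1, 130.1, 242 and 242 in the HL libraries (log2 change 1.77, SE 0.53, limma adjusted p 0.00751). For DFR the first LL plant lay above the first HL plant, so the groups overlapped. The third and the fourth HL plants were the highest.

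UGT79B1, an anthocyanin xylosyltransferase, stood at 33.3, 8.56, 7.01 and 23.2 FPKM in the LL libraries and 36.4, 51.5, 81.7 and 74.4 in the HL libraries (log2 change 1.90). It had a promoter with 2 copies of the G-box, CACGTG, the palindrome bound by bZIP factors such as HY5 and by PIFs. The promoter is shown for those copies, at chr5:21938397-21938646, minus strand, with the G-boxes in capitals.
UGT79B1: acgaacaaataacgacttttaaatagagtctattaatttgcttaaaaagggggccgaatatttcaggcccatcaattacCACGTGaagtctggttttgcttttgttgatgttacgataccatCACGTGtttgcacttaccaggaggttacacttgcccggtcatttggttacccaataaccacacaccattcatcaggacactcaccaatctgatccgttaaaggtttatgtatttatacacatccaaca
The G-box was found in 5 of 18 flavonoid enzyme promoters (27.8%), in 5 of 20 antenna promoters (25.0%), in 9 of 27 clock promoters (33.3%) and in 1316 of 17672 (7.4%).

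Regulators of the pathway were called in both directions, with 5 of 15 tested higher (33.3%) and 3 lower (20.0%). These shares were near the 30.0% and 21.6% of all tested genes. MYB75 (PAP1), an activator of anthocyanin genes, stood at 37.1, 18.4, 27.4 and 38.4 FPKM in the LL libraries and 45.2, 58.0, 69.4 and 65.8 in the HL libraries (log2 change 0.99, SE 0.26, limma adjusted p 0.00275), with the lowest HL plant just above the highest LL plant. TT8, a bHLH partner of such MYBs, rose (log2 change 1.45). The repressor MYBL2 stood at 62.8, 57.8, 53.8 and 63.5 FPKM in the LL libraries and 14.4, 18.8, 26.5 and 20.8 in the HL libraries and fell in every comparison of plants (log2 change -1.54). LBD39, also described as a repressor of anthocyanin synthesis, rose (log2 change 1.54). Of 18 general phenylpropanoid genes, 9 rose and 3 fell, with the flavonoid-linked ligase 4CL3 at 1.33 and SNG1, the enzyme of sinapoylmalate synthesis, at -1.42 on the log2 scale.

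Light signalling genes rose more often than they fell. Of 22 tested, 12 rose and 6 fell (median 0.27). HY5 stood at 8.36, 6.26, 7.78 and 7.20 FPKM in the LL libraries and 17.5, 19.9, 24.4 and 23.8 in the HL libraries (log2 change 1.41, SE 0.15, limma adjusted p 1.35e-07), and its homologue HYH at 19.9, 20.0, 18.1 and 17.2 FPKM in the LL libraries and 67.4, 68.5, 75.1 and 77.1 in the HL libraries (log2 change 1.89, SE 0.10, limma adjusted p 1.03e-11). Both genes were higher in every HL plant. RUP2, a brake on the ultraviolet-B receptor, rose (log2 change 1.14). Photoreceptors that fell were CRY1, a blue-light cryptochrome (log2 change -1.16), and PHOT1, a phototropin (log2 change -0.52).

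In the list of PIFs and shade genes, 6 of 9 tested fell and none rose (median -0.73), and the sum went from 205 to 99.3 FPKM. On the 12 HL libraries alone 2 of the 9 missed the level required for testing, which favours a fall, and on the 12 LL libraries alone 1 missed it. PIF4, a promoter of elongation growth, stood at 75.2, 73.2, 70.7 and 77.4 FPKM in the LL libraries and 23.3, 23.1, 21.9 and 21.1 in the HL libraries (log2 change -1.69), and PIF5 had a log2 change of -1.01. All HL plants lay well below all LL plants in PIF4. Without the third HL plant 1 member of the list was called higher.

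B-box factors, zinc-finger proteins that act with or against HY5, were called higher in 6 and lower in 6 of 19 tested genes. That is 31.6% each way, against 30.0% higher and 21.6% lower over all tested genes. BBX31 stood at 6.36, 7.79, 4.71 and 4.61 FPKM in the LL libraries and 39.4, 46.7, 53.4 and 54.4 in the HL libraries (log2 change 2.86, SE 0.21, limma adjusted p 7.64e-10). BBX32, the gene over-expressed in the other line of the series, stood at 3.72, 4.07, 3.15 and 2.27 FPKM in the LL libraries and 14.3, 16.6, 13.4 and 15.7 in the HL libraries in these wild-type plants (log2 change 1.91, SE 0.21, limma adjusted p 1.56e-07). BBX14 and BBX17 fell (log2 changes -1.41 and -1.15). The 2 largest rises thus came from adjacent numbers of the family.

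Of 27 tested clock genes, 9 were called higher (33.3%) and 8 lower (29.6%), with a median of 0.06 that became -0.02 after rescaling. Over all tested genes 30.0% were called higher and 21.6% lower. LL controls were run in parallel with HL plants, per the series' design text. PRR3 (log2 change 1.32) and the evening-complex gene LUX (1.27) rose, and CHE (-1.17) and CDF2 (-1.07) fell. The morning genes went apart, with CCA1 at 0.68 and LHY at -0.77. LHY libraries overlapped between the groups. The evening element AAAATATCT was found in 4 of 27 clock promoters (14.8%) and in 450 of 17672 (2.5%).

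**Figure D4:**
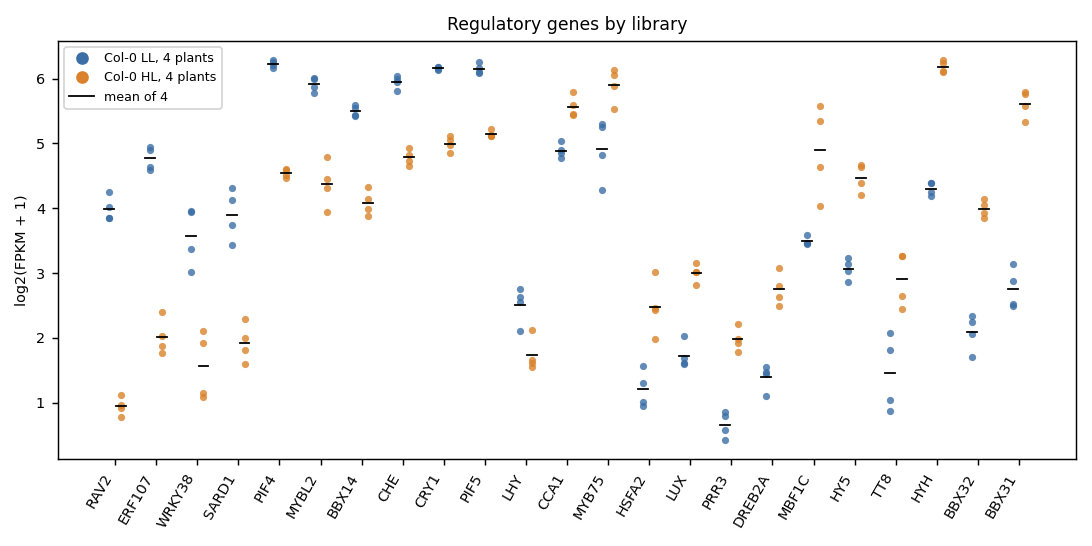
Level as log2(FPKM + 1) of regulatory genes in every Col-0 library, 4 LL and 4 HL plants as points with a line at their mean, ordered by log2 change. HY5, HYH, BBX31 and BBX32 lie higher in every HL plant, and PIF4 lies lower in every HL plant.

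Salicylate and systemic resistance genes fell: 17 of 22 tested were lower and none higher (median -1.18). NIMIN1, a partner of the coactivator NPR1, stood at 15.2, 19.5, 12.6 and 7.33 FPKM in the LL libraries and 1.64, 1.97, 2.60 and 2.98 in the HL libraries (log2 change -2.10), and SARD1, a regulator of salicylate synthesis, at 16.5, 18.9, 12.4 and 9.77 FPKM in the LL libraries and 2.03, 2.51, 2.99 and 3.91 in the HL libraries (log2 change -1.98). Both were separate between the groups. The late marker PR1 stood at 748, 665, 225 and 164 FPKM in the LL libraries and 99.0, 125, 220.5 and 224 in the HL libraries, and the groups overlapped (log2 change -1.22, SE 0.62, limma adjusted p 0.105). PR2 and PR5 were not called either, with log2 changes of -0.42 and -0.96. The sum of the list is led by such abundant genes and was 3239, 2295, 1194 and 1041 FPKM in LL against 573, 799, 1334 and 1195 in HL. The first and second LL plants were high in it and the third and the fourth were not.

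Families tied to defence fell in part too. Of 46 tested WRKY factors, 20 fell and 3 rose (median -0.32), with WRKY62 at -1.52 on the log2 scale and WRKY44, a trichome and seed coat regulator, at 0.77. Of 33 tested cysteine-rich receptor-like kinases, 21 fell and 2 were called higher (median -0.48), or 1 higher without the second, the third or the fourth LL plant or the first, the third or the fourth HL plant. The falls were led by AT4G11890 (log2 change -1.69) and CRK41 (log2 change -1.51). On the 12 HL libraries alone, 6 WRKY factors and 5 of these kinases missed the level required for testing, which favours a fall. On the 12 LL libraries alone, 2 WRKY factors and 1 kinase missed it.

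Jasmonate genes varied widely between plants of the same group. Of 25 tested, 1 was called higher and 2 lower, counts that rested on single plants: leaving out the second or the third LL plant or the third or the fourth HL plant left 0 higher, leaving out the first LL or first HL plant gave 3 higher and 1 lower, and leaving out the fourth LL or second HL plant gave 2 higher and 1 lower. Their sum was 6555, 1598, 2044 and 5145 FPKM in LL and 2013, 2341, 7119 and 3864 in HL. VSP1, a vegetative storage protein induced by jasmonate and wounding, stood at 456, 12.6, 17.4 and 239 FPKM in the LL libraries and 117, 183, 1543 and 499 in the HL libraries (log2 change 2.31, SE 0.99, limma adjusted p 0.056). The first and the fourth LL plants and the third and the fourth HL plants were high. The same LL plants were the highest in DFR above. The starch list's BAM5, a beta-amylase, showed that order as well, at 117, 15.8, 22.4 and 79.2 FPKM in the LL libraries and 137, 162, 537 and 251 in the HL libraries (log2 change 2.42, SE 0.60, limma adjusted p 0.00177). What part such plant differences have in the flavonoid and starch results was not tested. Of 5 jasmonate and ethylene defence genes, 2 fell and none rose, or 1 without the first LL or the second HL plant. The plant defensin gene PDF1.2A stood at 123, 18.1, 32.0 and 88.8 FPKM in LL and 2.32, 1.87, 12.7 and 39.9 in HL (log2 change -2.59), with overlapping groups.

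Glucosinolates, the sulfur-rich defence compounds of this family of plants, were counted by branch. Of 16 tested aliphatic genes, 12 rose and none fell (median 0.48), among them the cytochrome P450 gene CYP79F2 (log2 change 1.18). Of 13 indole and camalexin genes, 5 were called lower and 1 higher (median -0.59). On the 12 HL libraries alone 2 of the 13 missed the level required for testing, which favours a fall. The count lower was 3 without the first LL, the second LL or the third HL plant, and the count higher was 0 in 6 of the 8 fits that left out a Col-0 plant, all but those without the fourth LL or the second HL plant. MYB51, an activator of the indole branch, stood at 5.33, 6.93, 4.06 and 4.14 FPKM in the LL libraries and 0.451, 0.881, 0.575 and 0.497 in the HL libraries (log2 change -1.92), and CYP81F2, which modifies indole glucosinolates, had a log2 change of -1.82. The difference between the branches was not tested.

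Of 19 tested abscisic acid and dehydration genes, 3 were called higher and 6 lower. The count higher was 1 without the fourth LL plant, and after rescaling 1 was called higher and 8 lower. CYP707A2, which breaks down abscisic acid, had a log2 change of 2.13 and the phosphatase gene PP2CA one of -0.88. Of 10 tested CBF and cold-responsive genes, 1 was called each way. The call higher was lost in the fits without the second or the fourth LL plant and without any of the HL plants, and a further call lower came without the second LL plant. The third LL plant stood apart in their sum, at 2419 FPKM against 1872 to 1913 in the other LL plants. Of 17 tested aquaporin genes, 6 were called higher (35.3%) and 3 lower (17.6%), and after rescaling 5 were called each way. The first 2 shares were near the 30.0% and 21.6% of all tested genes. PIP2;3 of the plasma membrane was at 1.78 and TIP2;2 of the vacuole membrane at 1.07 on the log2 scale.

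Genes of auxin response, wall loosening and histones fell more often than they rose. Of 71 tested Aux/IAA and SAUR genes, which respond to auxin, 30 fell and 9 rose (median -0.20). For 10 of these the 12 HL libraries of the series alone did not reach the level required for testing, which favours a fall. For 4 the 12 LL libraries alone did not, which favours a rise. Of 37 tested expansins and xyloglucan transferases and hydrolases, which remodel cell walls, 10 fell (27.0%) and 5 rose (13.5%). Over all tested genes 21.6% fell and 30.0% rose, so the share that fell was near the background. The list's sum overlapped between the groups, at 896 to 1116 FPKM in LL and 829 to 1145 in HL. EXPA8 stood at 49.7, 62.9, 52.2 and 48.9 FPKM in the LL libraries and 5.71, 5.95, 7.30 and 4.50 in the HL libraries (log2 change -2.99), EXPB1 had a log2 change of -2.75, and ATEXPA10 moved the other way (log2 change 1.42). Of 45 tested histone genes, 14 fell and 4 rose (median -0.25). None of the 7 cell division markers was called by limma.

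Other transcription factor and enzyme families were called in both directions. Among ERF factors, 21 of 71 tested rose (29.6%) and 17 fell (23.9%), close to the 30.0% and 21.6% of all tested genes. RAV2, a repressor of flowering, stood at 13.5, 18.0, 15.2 and 13.4 FPKM in the LL libraries and 1.16, 0.957, 0.888 and 0.709 in the HL libraries (log2 change -3.05), ERF107 had a log2 change of -2.76 and the cytokinin response factor CRF2 one of 1.90. Among NAC factors, 8 of 47 rose (17.0%) and 12 fell (25.5%). On the 12 HL libraries alone 9 of them missed the level required for testing, which favours a fall. On the 12 LL libraries alone 5 missed it, which favours a rise. The NAC median of -0.05 changed sign among members with a mean FPKM of at least 5. ANAC13, a regulator of mitochondrial stress genes, was at 1.29 and the senescence factor NAC029 at -2.47 on the log2 scale. Among UDP-glycosyltransferases, 20 of 62 rose (32.3%) and 11 fell (17.7%), also near the shares of all tested genes, with UGT73C1 at 2.40 and UGT88A1 at -2.15. Of 29 tested glutathione transferases, 6 were called each way.

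The largest changes outside the lists included genes with little annotation. AT2G27420, annotated as a cysteine proteinase, stood at 2.85, 3.96, 4.59 and 2.79 FPKM in the LL libraries and 78.8, 87.1, 82.2 and 92.8 in the HL libraries (log2 change 4.26, SE 0.60, limma adjusted p 3.8e-06), and it is 90.1% identical to AT2G27395 over 272 bases. The SE of AT2G27420 includes HL plants of the BBX32 over-expressing line, with a mean of 23.7 and an SD of 30.0 FPKM. Its SDs in Col-0 were 0.881 FPKM in LL and 6.06 in HL. AT3G10185, a gibberellin-regulated family member, stood at 0, 0.217, 0.145 and 0.211 FPKM in the LL libraries and 16.5, 17.2, 18.4 and 20.5 in the HL libraries (log2 change 4.07), with 30.6% of its exon bases overlapped by AT3G10180. The lipid transfer protein gene LTP4 stood at 0.476, 0.166, 13.1 and 1.22 FPKM in the LL libraries and 39.9, 47.7, 34.0 and 30.4 in the HL libraries (log2 change 3.83). The third LL plant was far above the other LL plants in LTP4.

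Among the falls, LLP, a lectin-like protein gene, stood at 1069, 849, 702 and 576 FPKM in the LL libraries and 43.1, 83.6, 95.1 and 97.6 in the HL libraries (log2 change -3.34). ATCTH, a zinc-finger gene, stood at 42.8, 46.5, 44.6 and 52.3 FPKM in the LL libraries and 3.97, 2.76, 3.05 and 2.13 in the HL libraries (log2 change -3.60), and GRXC11, a glutaredoxin, at 14.8, 11.2, 11.9 and 11.8 FPKM in the LL libraries and 0.0621, 0.483, 0.156 and 0.0321 in the HL libraries (log2 change -3.51). AT5G48490, which the table does not describe, stood at 31.7, 40.9, 38.4 and 42.0 FPKM in the LL libraries and 3.71, 1.95, 1.35 and 0.958 in the HL libraries (log2 change -3.79). All 4 genes were lower in every HL plant than in any LL plant, which the naming rule required.

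Samples were whole leaves, so fewer cells of a type and less RNA per cell cannot be told apart. Markers of leaf mesophyll summed to 44634 FPKM in LL and 33346 in HL, in a list that shares antenna genes with those above. Its members went both ways: of 5 tested, 2 were called higher and 2 lower, with a median log2 change of 0.12. Its antenna member LHCB1.3 alone went from a mean of 16829 FPKM in LL to 5335.5 in HL. Guard cell markers summed to 79.6 and 78.6 FPKM, phloem companion cell markers to 181 and 172, and trichome markers to 8.25 and 12.9. Root markers summed to 2.91 and 2.53 FPKM, flower and pollen markers to 0.322 and 0.434, and seed markers to 0.0254 and 0.110.

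Several members were listed at 0 although their pathway was active. They included F3H of the flavonoid list, LHCB1.5, GUN4 of chlorophyll synthesis, and MYC2 of the jasmonate list, whose exon bases are overlapped on the opposite strand over 93.8%, 100.0%, 73.0% and 98.5%. Whether the counting used strand is not given in the sources used here, and no change is given for these genes.

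**Figure D5:**
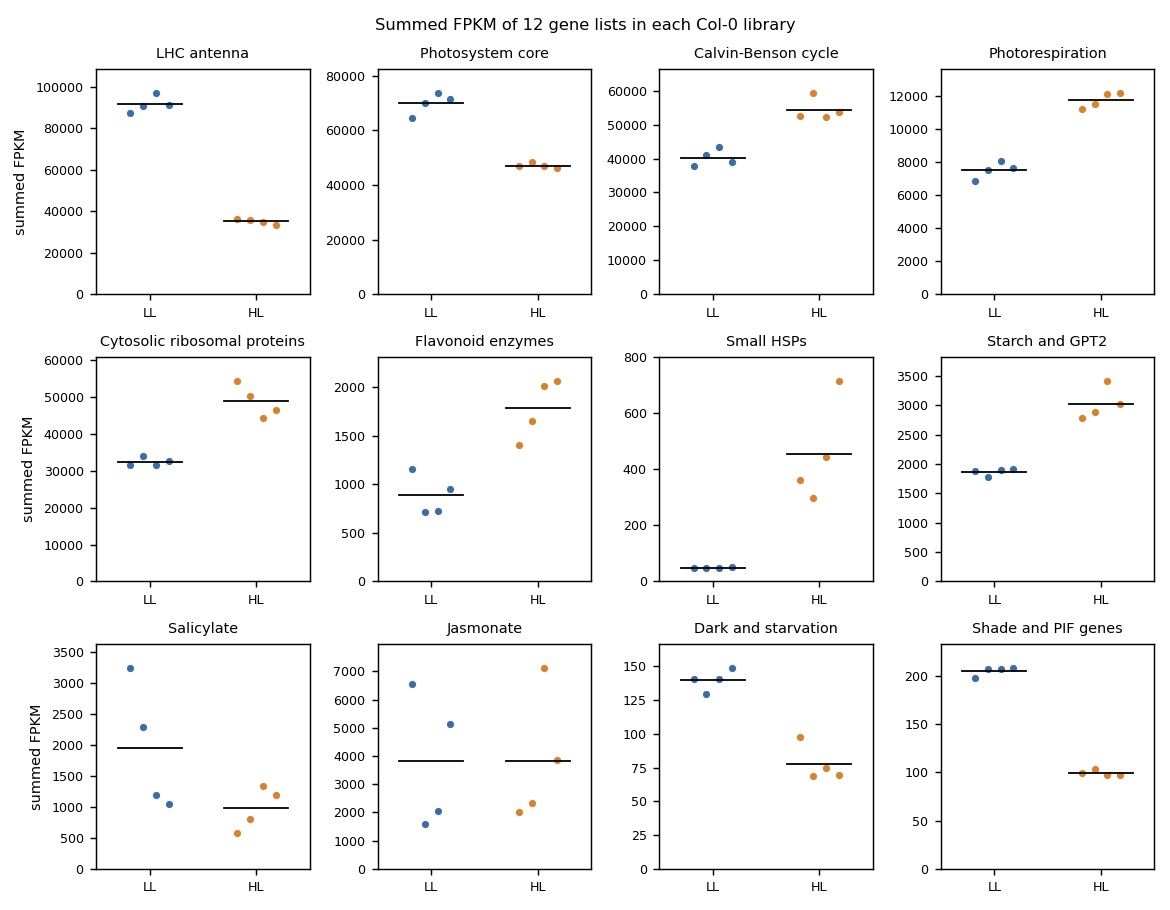
Summed FPKM (y axis, starting at 0) of all members of 12 gene lists in every Col-0 library, 4 LL and 4 HL plants as points in order of their number with a line at the mean. The antenna and PIF sums are lower and the ribosomal protein, small heat shock protein and flavonoid sums higher in all HL plants, and the salicylate and jasmonate sums overlap between the groups.

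The same exposure in BBX32-10 and hy5-2 shows which wild-type responses differed when tested as an interaction, with the Col-0 libraries shared by both tests. The BBX32-10 response differed from that of Col-0 in 3524 genes (19.8%) and the hy5-2 response in 116 (0.652%). The hy5-2 count was 63 without the fourth Col-0 HL plant, 71 without the first or the third Col-0 LL plant, 76 without the second Col-0 HL plant, 74 without the second LL or the third HL plant of hy5-2, and 317 without the fourth LL plant of hy5-2. For BBX32-10 these included 17 of 20 antenna genes, 24 of 35 core genes and 156 of 217 cytosolic ribosomal protein genes, against 1 of 14 small heat shock protein genes. LHCB1.4 had means of 3497 FPKM in LL and 255 in HL in Col-0, and of 1328 and 287 in BBX32-10, so the HL levels were close and the LL level was lower in BBX32-10. Its log2 change was -3.79 in wild type, -2.30 in BBX32-10 and -3.62 in hy5-2.

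For hy5-2, 4 of 18 flavonoid enzyme genes and 5 of 18 general phenylpropanoid genes had an interaction. CHS had means of 299 and 474 FPKM in Col-0 LL and HL, and of 329 and 146 in hy5-2 (interaction limma adjusted p 0.00851). ELIP1 had means of 32.1 and 208 FPKM in Col-0 LL and HL, and of 19.8 and 2.48 in hy5-2, where the interaction had a limma adjusted p of 0.00024. In BBX32-10 it had 177 ± 41.7 FPKM in LL and 227 ± 226 in HL (SD, n = 4), a spread as large as the HL mean, with a fitted log2 change of -0.21. HY5 itself had means of 0.711 and 0.499 FPKM in hy5-2, and BBX32 means of 845 and 764 in BBX32-10, against 3.30 and 15.0 in Col-0.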

How the data were processed

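Polyadenylated RNA from leaves of single plants was sequenced. FPKM values per gene were made by the authors before deposit, and the submitters' processing notes name CASAVA, HISAT2 2.0.5, HTSeq 0.6.1 and DESeq2 1.20.0 and the build TAIR10, without roles; strand use is not given in the sources used here. Of 34218 genes in the deposited table, 8980 were listed at 0 throughout. Depth was recovered from the steps of FPKM: of 25238 genes above 0, 99.97% gave whole fragments to within 0.05, and 80.2% did so with the mean annotated transcript length. Replicate pairs differed beyond counting noise in each Col-0 group. All intervals and floors cover counting error only, and p-values measure the spread between plants of a single exposure, pooled over all 24 libraries.

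The test was limma 3.58.1 in R 4.3.3 on log2(FPKM + 1), with a pseudocount of 1, a mean per group over all 24 libraries, an intensity trend, two-sided tests and Benjamini-Hochberg adjustment over 17788 genes, those that reached 1 FPKM in 4 or more libraries. Sums, counts and promoter matches were made in Python 3.11.15 with pandas 2.3.3, and similar copies were found with blastn 2.17.0 at 90% identity over at least 100 bases. Of the gene IDs, 32548 matched RefSeq TAIR10.1, and 99.95% of these had the same coordinates.

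The gene lists, their members and the tests were chosen with earlier results of these data known. The naming rule took, per list, the largest rise and fall among called genes whose groups did not overlap (2 each way for lists of 15 or more tested genes), the 8 largest of all genes each way, tissue markers and 9 fixed genes. Genes named beyond it were chosen after their values were seen: LHCA6, LHCB1.5, LHCB3, LHCB4.2, RBCS2B, RBCS3B, GLDP1, GDCH, GUN4, CAO, F3H, DFR, UGT79B1, HSP17.4, HSP17.7, HSP23.6, HSP101, HSP90.1, HSFA2, APX1, VTC2, ZAT10, ZAT12, AOX1A, RUP2, PIF5, CCA1, LHY, GBSS1, PWD, BAM3, SEN1, ASN1, FER3, FER4, PR1, PR2, PR5, VSP1, MYC2, PDF1.2A, CYP81F2 and RPL36A. Alternatives were another pseudocount, other filters, rescaling to the median of ratios, limma voom on recovered fragments, a replicate block, the Col-0 libraries alone, a 2-fold requirement and leaving out each library.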

Additional observations from a re-analysis of the deposited data

Results flagged for a closer look

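Of 166 groups of 4 plants examined, 6 had a plant far from the other 3, and chance alone gives about 1 in 20. HSP17.6C was 30.106 FPKM in the fourth HL plant against 9.16 to 11.57 in the others. LTP4 was 13.12 FPKM in the third LL plant against 0.166 to 1.22. Summed over the small heat shock proteins, the fourth LL plant had 51.751 FPKM against 46.349 to 46.868. The sum of PIFs and shade genes was 197.7 FPKM in the first LL plant against 207.27 to 208.27. The CBF and cold-responsive sum was 2418.5 FPKM in the third LL plant against 1871.8 to 1912.6. The sum of mitochondria-encoded genes was 102.46 FPKM in the first HL plant against 133.38 to 138.47.

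Several wild-type responses differed from those of the other lines by limma's interaction test, given here as the other line's log2 response minus that of Col-0, with the Col-0 libraries shared by all. The genes were chosen mostly for large changes in Col-0, which enters both values. For BBX32-10 the difference was -0.82 for PSBS, -1.07 for MYB75, -3.33 for AT2G27420, -2.44 for AT3G10185, -1.91 for HYH, -2.16 for BBX32, -2.86 for ELIP1, -3.63 for ELIP2 and -1.4 for HY5. It was 1.65 for RAV2, 2.0 for ATCTH, 1.49 for LHCB1.4, 1.08 for EXPA8, 1.53 for LHCB2.3, 0.96 for GRXC11, 2.31 for LLP and 1.78 for AT5G48490. It was not of 1 sign against the Col-0 change: MBF1C, which rose in Col-0, had 1.69, and GOLS3, which fell, had -1.33. For hy5-2 it was -0.94 for HYH, -5.18 for ELIP1, -1.6 for HY5 and -1.81 for CHS. In the BBX32-10 line BBX32 is the over-expressed gene, and in hy5-2 HY5 is the mutated gene. A negative difference need not mean a low level. BBX32-10 LL means of PSBS, MYB75, HYH, BBX32, ELIP2 and HY5 (36.9 against 21.4 FPKM for HY5) exceeded the Col-0 HL means. Those of AT2G27420, AT3G10185 and ELIP1 did not. In BBX32-10 HL the SD exceeded the mean for AT2G27420 (23.7 ± 30.0 FPKM, n = 4), AT3G10185 (3.50 ± 4.06) and ELIP2 (33.1 ± 46.4).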

How the results depend on the processing

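The count of 9182 called genes stayed between 6879 (mean FPKM of at least 5) and 9916 (Col-0 libraries only) under the settings tried, and no call changed direction, apart from a requirement of 2-fold, which by its construction left 1540. With a pseudocount of 0.1 the genes called at 2-fold or more numbered 2385, and with limma voom on recovered fragments 2465, since neither shrinks low genes as a pseudocount of 1 does. After rescaling, the hy5-2 interaction was called for 49 genes in place of 116. Leaving out 1 library at a time gave 8327 to 8656 called genes, 1503 to 1624 at 2-fold or more, 2737 to 4806 for the BBX32-10 interaction and 63 (without the fourth Col-0 HL plant) to 317 (without the fourth hy5-2 LL plant) for the hy5-2 interaction. With the replicate number as a block 8949 genes were called. The correlations of same-numbered plants were -0.326, 0.279, -0.201 and -0.144, and those of differently numbered plants ran from -0.324 to 0.401. These show no sign of pairing by number, but so few values cannot exclude it. For single named genes, leaving out a library lost the call in 66 cases and changed nothing in 1318, and the other settings lost it in 25 cases and changed nothing in 1154. For the counts of list members called, leaving out a library moved 51 by more than 1.5 times and left 909, and the other settings moved 66 and left 774. Depth limits the genes near 0 FPKM, such as APX2.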

Other observations

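Families described mostly by counts held single genes with changes of more than 2-fold. Among glutathione transferases, which join glutathione to reactive compounds, GSTU5 had means of 152 and 383 FPKM in LL and HL (log2 change 1.33), and GSTF7 had 91.1 and 25.6 (log2 change -1.69). Among NAC factors, NAC032 had 2.28 and 6.58 FPKM (log2 change 1.21) and NAC104 2.72 and 0.409 (log2 change -1.41). Among histones, the H2A gene HTA4 had 16.2 and 5.73 FPKM (log2 change -1.35). Among auxin-responsive SAUR genes, AT1G75580 had 4.12 and 10.5 FPKM (log2 change 1.16), against 2.47 and 0.215 for AT4G34790 (log2 change -1.47). All of these were called by limma, and none overlapped between the 4 LL and 4 HL plants, but the naming rule required both. Over all tested genes 52.5% did not overlap.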
